A study of Homo sapiens with 9 samples.

Results

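The genes described here are 9 targets of the transcription factor p53, namely MDM2, CDKN1A, TP53INP1, AEN, FAS, BTG2, SESN1, ZMAT3 and TNFRSF10B. They were taken by symbol from a table of 26190 usable rows, and all 9 were found. The table holds FPKM (fragments per unit of transcript length, relative to all fragments of the library) for polyadenylated RNA of Jurkat, a cell line from human T-cell acute lymphoblastic leukaemia. Unedited Jurkat cells (WT) and 2 lines made with CRISPR/Cas9, labelled EZH2-KO1 and EZH2-KO2, gave 3 libraries each, from cells in exponential growth in complete RPMI with no treatment named. EZH2 is the enzyme with which Polycomb repressive complex 2 methylates histone H3, and the series title concerns sensitivity of EZH2-deficient leukaemia to inhibition of the checkpoint kinase CHK1. Each edited line is 1 line, and nothing in the labels says how the triplicates were separated, so p-values here reflect the spread of these libraries, which may be technical.

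p53 is a DNA-damage-responsive transcription factor whose targets halt the cell cycle, repair DNA, adjust metabolism and promote cell death. Its level is held down by the ubiquitin ligase MDM2, which p53 itself induces, and its activity is blocked by the MDM2 relative MDM4. In lymphoid cells p53 is known for removing cells with damaged DNA. Many of these targets also respond to other factors, so their levels are not a readout of p53 alone.

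RefSeq windows on GRCh38.p14, from 250 bases before to 50 after an annotated start, were searched for the p53 half-site consensus, a motif of 10 letters that is its own reverse complement and so covers both strands. Windows were found for 7 of the 9 genes, 15 windows in all, and 3 of them held a match, against 6.63% of the 35116 windows in the table. The 15 windows are few and some overlap, as in MDM2 and FAS, so no excess of matches can be read from this count. The matches were GGGCTTGCCC in AEN, GGACAAGCCC in 1 of 3 windows of FAS and GGACAAGTCT in 1 of 3 windows of SESN1, starting 34, 122 and 49 bases before the start. No window of MDM2, CDKN1A, BTG2 or ZMAT3 held one, which says only that these letters are absent there. The 250 bases before the starts of AEN (plus strand, chr15:88621090-88621339) and BTG2 (plus strand, chr1:203305269-203305518) are shown as a window with a match and a window without one, from genes that passed in both edited lines. Whether the motif goes with any change was not tested. Capitals mark the match.
AEN: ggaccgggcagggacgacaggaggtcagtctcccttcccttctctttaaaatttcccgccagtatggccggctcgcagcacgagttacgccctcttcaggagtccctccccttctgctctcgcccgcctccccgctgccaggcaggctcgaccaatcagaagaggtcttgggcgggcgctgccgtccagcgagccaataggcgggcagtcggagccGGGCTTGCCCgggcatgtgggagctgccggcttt
BTG2: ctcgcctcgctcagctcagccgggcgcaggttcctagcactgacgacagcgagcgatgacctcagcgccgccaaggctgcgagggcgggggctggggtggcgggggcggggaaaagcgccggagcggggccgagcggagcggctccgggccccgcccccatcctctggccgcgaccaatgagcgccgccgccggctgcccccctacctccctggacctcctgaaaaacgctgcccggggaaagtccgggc
A match is a description of the sequence, not a binding site. FAS and SESN1, which also hold a match, did not pass in either edited line. MDM2, whose windows hold no match, rose in both lines as AEN did. So few genes cannot decide whether a match goes with a change, which was not tested.

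The EZH2 transcript, reported first because it is the edited gene, stood at 74.4, 77.6 and 79.5 FPKM in WT, at 108, 107 and 103 in the libraries labelled KO1 and at 87.9, 89.9 and 90.7 in those labelled KO2. An FPKM value sums over the whole transcript and cannot reveal a small edit, so the labels go unchecked by it. Each library summed to between 417737 and 439704 FPKM, 11028 to 11415 genes reached 1 FPKM, and the depth in reads is unknown. All 8 T-lymphocyte markers were detected, with summed levels of 1440 to 1530 FPKM in WT, 1270 to 1400 in KO1 and 1460 to 1490 in KO2. Of 5 myeloid markers 0 reached 1 FPKM. Of the 5 B-lymphocyte, 4 erythroid and 6 epithelial and fibroblast markers, CD79A, HBB and COL1A1 alone did so in any library. CD79A made the summed B-lymphocyte level 24.6 to 29 FPKM in WT, 48.8 to 58.4 in KO1 and 19.3 to 22.4 in KO2, while PAX5 was listed at 0 throughout. The part of these differences in the results was not tested.

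In both edited lines the 9 targets moved in both directions. AEN and MDM2 rose, TP53INP1, BTG2 and TNFRSF10B fell, and FAS and SESN1 passed in neither line. Of the 8 tested, 25% rose and 37.5% fell in both lines, against 30% and 22.3% of all genes tested. In KO1, 3 of the 8 tested genes rose and 3 fell, by limma on log2(FPKM + 1) with Benjamini-Hochberg adjusted p under 0.05 over all 11737 genes tested. Of all genes tested, 35.6% rose and 31.9% fell in KO1, 67.5% in all, near the 75% of the 8. In KO2, 2 of the 8 rose and 3 fell (62.5%), against 38.1% higher and 26.6% lower among all genes, 64.7% in all. In each edited line 6 of the 8 had no overlap between its libraries and WT, as had 68.6% of all genes in KO1 and 69.2% in KO2. The median log2 fold change of the 8 was 0.04 in KO1 and 0.09 in KO2, against 0.02 and 0.06 over all genes tested. Because RNA came from whole cultures, fewer cells expressing a gene and less RNA per cell cannot be told apart. Every log2 fold change below is a difference of log2(FPKM + 1), given ± SE where an error follows it, and it is smaller than the true change for weak genes. Both edited lines were compared with the same WT libraries.

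**Figure D1:**
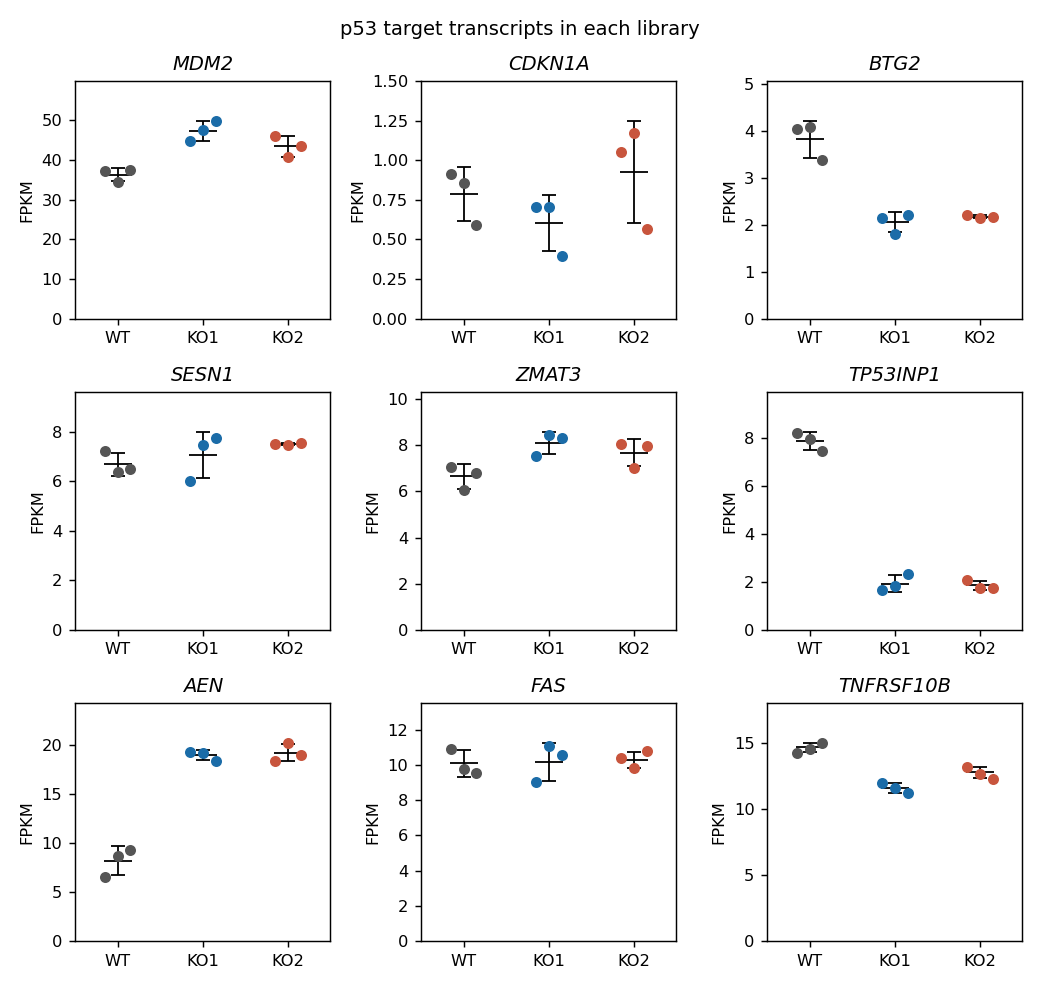
FPKM (vertical axes, each from 0) of the 9 p53 targets in the 3 libraries of each line (points), with the group mean and SD (black bars). TP53INP1 sits between 7.48 and 8.23 in WT and at or below 2.32 in both edited lines, whereas AEN sits at or below 9.31 in WT and at or above 18.4 in both.

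Among the genes of the p53 feedback loop, MDM2, the ubiquitin ligase that marks p53 for degradation, was the most abundant of the 9 targets in every line. MDM2 stood at 37.2, 34.4 and 37.4 FPKM in WT, at 44.8, 47.5 and 49.8 in KO1 and at 46, 40.7 and 43.6 in KO2. Every edited library lay above every WT library, and the edited lines overlapped each other. The rise of MDM2 was 1.3-fold in mean FPKM in KO1 (log2 fold change 0.37 ± 0.06, limma adjusted p = 0.000195) and 1.19-fold in KO2 (0.25 ± 0.06, adjusted p = 0.0032).

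MDM4, which binds p53 and blocks its activity, went the other way from MDM2. It stood at 15.2, 14.4 and 16.1 FPKM in WT, at 9.46, 8.58 and 9.54 in KO1 and at 8.78, 8.57 and 8.51 in KO2, with no overlap between WT and either edited line. The fall of MDM4 had a log2 fold change of -0.67 ± 0.06 in KO1 (limma adjusted p = 2.99e-06) and -0.76 ± 0.06 in KO2 (adjusted p = 1.63e-06). PPM1D, a phosphatase that turns off the damage response and is induced by p53, rose from 8.99 ± 0.674 FPKM to 11 ± 0.252 in KO1 and 10.8 ± 0.61 in KO2 (SD, n = 3; limma adjusted p = 0.00352 and 0.00653).

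**Figure D2:**
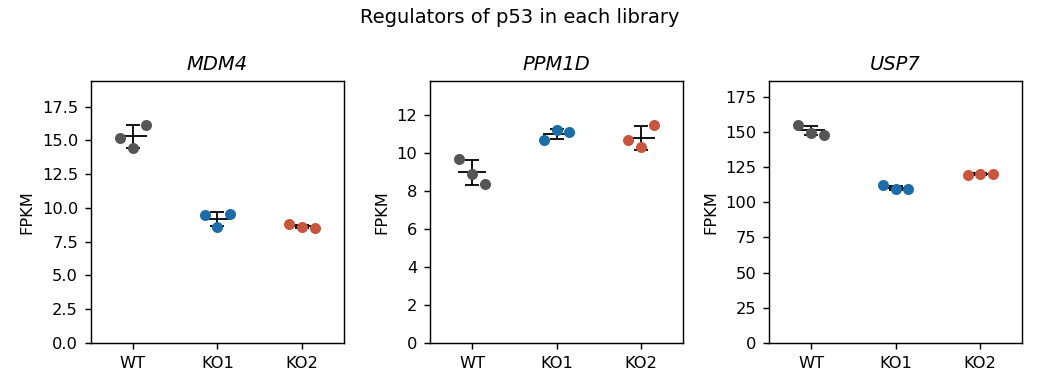
FPKM (vertical axes, each from 0) of MDM4, PPM1D and USP7 in the 3 libraries of each line (points), with the group mean and SD (black bars). MDM4 is at least 14.4 in WT and at most 9.54 in the edited lines, and USP7 is at least 148 in WT and at most 120 in the edited lines.

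Of 16 listed regulators of p53, 13 were tested. In KO1, 5 of these rose and 4 fell, with a median log2 fold change of 0.08. In KO2, 6 rose and 3 fell, with a median of 0.11. The share called was 69.2% in each line, near the 67.5% and 64.7% of all genes. USP7, the deubiquitinase of MDM2 and p53, fell from 151 ± 3.41 FPKM to 110 ± 1.72 in KO1 and 120 ± 0.721 in KO2 (SD, n = 3; limma adjusted p = 5.76e-07 and 7.38e-06). ATM, the kinase that activates p53 after DNA breaks, fell from 14.8 ± 0.946 FPKM to 9.09 ± 0.17 in KO1 and 10.3 ± 0.422 in KO2 (adjusted p = 3.19e-06 and 3.49e-05 by limma). TP53RK, a kinase of the KEOPS complex that can phosphorylate p53, rose from 14.2 ± 0.994 FPKM to 20.9 ± 1.19 in KO1 and 21.6 ± 1.61 in KO2 (SD, n = 3; limma adjusted p = 5.87e-05 and 3.85e-05). TP63 and TP73, the p53 paralogues, did not reach the level for testing, and CDKN2A, whose product ARF inhibits MDM2, was listed at 0 in every library.

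Among the targets that halt proliferation, BTG2 fell and CDKN1A did not reach the level for testing. BTG2, an antiproliferative protein that recruits the mRNA deadenylation complex, stood at 4.03, 4.07 and 3.37 FPKM in WT, at 2.15, 1.8 and 2.2 in KO1 and at 2.2, 2.14 and 2.17 in KO2. All edited libraries lay below all WT libraries. The log2 fold change of BTG2 was -0.66 ± 0.09 in KO1 (limma adjusted p = 5.11e-05) and -0.60 ± 0.09 in KO2 (adjusted p = 0.000119).

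CDKN1A encodes p21, the cyclin-dependent kinase inhibitor through which p53 stops the cycle in G1. It stood at 0.91, 0.859 and 0.59 FPKM in WT, at 0.707, 0.703 and 0.396 in KO1 and at 1.05, 1.17 and 0.563 in KO2, the lowest of the 9 targets in each line. The ranges of all 3 lines overlapped. CDKN1A reached 1 FPKM in 2 libraries and was therefore not among the genes tested. Without that filter its log2 fold change was -0.16 in KO1 (limma adjusted p = 0.403) and 0.10 in KO2 (adjusted p = 0.627).

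The 9 other tested genes of the arrest and cell cycle list held 4 lower and 2 higher in KO1 (median log2 fold change -0.11) and 4 lower and 1 higher in KO2 (median -0.16). That is 66.7% and 55.6% called, against 67.5% and 64.7% of all genes. BTG1, the paralogue of BTG2, fell from 12 ± 1.01 FPKM to 5.33 ± 0.856 in KO1 and 5.04 ± 0.378 in KO2 (SD, n = 3; limma adjusted p = 4.71e-06 and 3.89e-06). The cyclin gene CCNG1 fell from 131 ± 16.6 FPKM to 68.3 ± 5.21 and 62.4 ± 2.9 (adjusted p = 3.11e-06 and 1.54e-06 by limma). CDKN1B, which encodes the p21 relative p27 and is less firmly a p53 target, fell from 54.9 ± 3.52 FPKM to 31.6 ± 3.37 and 33.4 ± 3.61 (adjusted p = 1.88e-05 and 4.74e-05 by limma). The phosphatase gene PTP4A1 rose, from 34.6 ± 2.32 FPKM to 58.8 ± 3.97 and 51.7 ± 2.35 (adjusted p = 1.82e-06 and 1.85e-05 by limma).

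Of the targets that act in stress, metabolism and RNA control, TP53INP1 changed the most of the 9. TP53INP1 encodes a stress-induced nuclear protein that promotes p53-dependent death and autophagy. It stood at 8.23, 7.97 and 7.48 FPKM in WT, at 1.65, 1.82 and 2.32 in KO1 and at 2.07, 1.73 and 1.74 in KO2. Mean FPKM was 4.09-fold lower in KO1 (log2 fold change -1.61 ± 0.10, limma adjusted p = 1.31e-07) and 4.27-fold lower in KO2 (-1.64 ± 0.10, adjusted p = 1.67e-07), and the lowest WT library lay above the highest edited one. NDUFAF6, which overlaps TP53INP1 on the opposite strand, moved the other way, from 7.74 ± 0.894 FPKM to 10.8 ± 0.614 and 12.3 ± 0.925 (SD, n = 3), and passed in both lines. The strandedness of the counting is not given in the sources used here. Whether reads from the stretch that such genes share were kept apart is therefore unknown.

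SESN1, a sestrin that restrains mTORC1, stood at 7.24, 6.38 and 6.49 FPKM in WT, at 6.02, 7.48 and 7.75 in KO1 and at 7.52, 7.46 and 7.54 in KO2. WT and KO1 overlapped, and the 3 KO2 libraries lay just above the highest WT library. SESN1 did not pass in KO1 (log2 fold change 0.06, 95% confidence interval -0.12 to 0.25, limma adjusted p = 0.522) or in KO2 (0.14, -0.04 to 0.33, adjusted p = 0.16).

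ZMAT3, an RNA-binding zinc finger protein, stood at 7.08, 6.06 and 6.81 FPKM in WT, at 7.54, 8.45 and 8.3 in KO1 and at 8.06, 7.01 and 7.97 in KO2. KO1 lay above WT in every library, and KO2 overlapped WT through replicate 2. ZMAT3 passed in KO1 (log2 fold change 0.25 ± 0.08, limma adjusted p = 0.0138) and missed the threshold in KO2 (0.18 ± 0.08, adjusted p = 0.0572), and the difference between the edited lines did not pass (-0.07 ± 0.08, adjusted p = 0.538). Its KO1 result missed the threshold when WT replicate 2 (adjusted p = 0.058) or KO1 replicate 2 (0.0517) was left out, and ZMAT3 passed in KO2 without WT replicate 1 (0.0383) or KO2 replicate 2 (0.0278); over all alternatives for KO1 the adjusted p ran from 0.0106 to 0.058.

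The list of other metabolism, autophagy and stress targets had 29 tested genes, of which 10 rose and 9 fell in KO1 (median log2 fold change -0.04) and 9 rose and 7 fell in KO2 (median 0.08). The share called was 65.5% and 55.2%, against 67.5% and 64.7% of all genes. DDIT4, an inhibitor of mTORC1 that also answers to other stresses, had the largest fall of the list in both lines, with log2 fold changes of -2.56 ± 0.11 and -1.86 ± 0.11 (limma adjusted p = 1.17e-08 and 1.72e-07). GPX1, a glutathione peroxidase, rose from 31.7 ± 1.22 FPKM to 59.3 ± 2.77 in KO1 and 58.2 ± 3.7 in KO2 (SD, n = 3; adjusted p = 2.02e-07 and 3.49e-07 by limma). ACER2, an alkaline ceramidase, rose from 1.93 ± 0.185 FPKM to 4.43 ± 0.176 and 3.46 ± 0.334 (adjusted p = 3.63e-06 and 8.25e-05 by limma). CYFIP2, a subunit of the actin-regulating WAVE complex, fell from 72.6 ± 2.76 FPKM to 48.6 ± 1.37 and 55.3 ± 0.824 (adjusted p = 5.36e-07 and 1.34e-05 by limma).

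Among the targets of cell death, AEN rose while the death receptor genes did not. AEN, an apoptosis-enhancing nuclease whose upstream window is printed above, stood at 6.55, 8.71 and 9.31 FPKM in WT, at 19.3, 19.2 and 18.4 in KO1 and at 18.4, 20.2 and 19 in KO2. The edited libraries lay close together and far above WT, in which replicate 1 was the lowest. AEN rose 2.31-fold in mean FPKM in KO1 (log2 fold change 1.13 ± 0.10, limma adjusted p = 2.54e-06) and 2.34-fold in KO2 (1.15 ± 0.10, adjusted p = 2.91e-06).

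TNFRSF10B, the TRAIL receptor DR5, stood at 14.3, 14.6 and 15 FPKM in WT, at 12, 11.6 and 11.2 in KO1 and at 13.2, 12.7 and 12.3 in KO2. The 3 lines did not overlap, with WT highest and KO1 lowest. The log2 fold change of TNFRSF10B was -0.31 ± 0.05 in KO1 (limma adjusted p = 0.000249) and -0.19 ± 0.05 in KO2 (adjusted p = 0.00748). RHOBTB2, which overlaps it on the opposite strand, went from 2.45 ± 0.361 FPKM to 4.21 ± 0.449 and 4.72 ± 0.196 (SD, n = 3) and passed in both lines.

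FAS, the receptor of FAS ligand and a main trigger of T-cell death, stood at 10.9, 9.76 and 9.58 FPKM in WT, at 9.05, 11.1 and 10.6 in KO1 and at 10.4, 9.84 and 10.8 in KO2. All 3 lines overlapped. The log2 fold change was 0.02 in KO1 (95% confidence interval -0.16 to 0.19, limma adjusted p = 0.862) and 0.03 in KO2 (-0.14 to 0.21, adjusted p = 0.754), and its sign changed under some alternatives. ACTA2, which overlaps FAS on the opposite strand, stood at 1.08 ± 0.242, 1.47 ± 0.212 and 1.8 ± 0.466 FPKM (SD, n = 3) in WT, KO1 and KO2. Against WT, ACTA2 passed as higher in KO2 and did not pass in KO1.

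Of 19 other death and survival genes, 10 were tested. In KO1, 3 rose and 1 fell (median log2 fold change 0.11), and in KO2, 3 rose and 4 fell (median 0.03), which is 40% and 70% called against 67.5% and 64.7% of all genes. BID, which links death receptors to mitochondria, rose from 36.7 ± 2.91 FPKM to 55.2 ± 1.18 in KO1 and 54.8 ± 1.45 in KO2 (SD, n = 3; limma adjusted p = 4.87e-06 and 7e-06). APAF1, the scaffold of the apoptosome, fell from 8.81 ± 0.471 FPKM to 5.77 ± 0.223 and 4.98 ± 0.522 (adjusted p = 0.000101 and 1.35e-05 by limma). IKBIP and TRIAP1 did not pass in KO1 (adjusted p = 0.104 and 0.152 by limma), but IKBIP did without WT replicate 3 (0.0375) and TRIAP1 without WT replicate 1 (0.00864). In KO2, IKBIP had a log2 fold change of -0.25 and TRIAP1, an inhibitor of apoptosis, of 0.16 (limma adjusted p = 0.0452 and 0.0347). IKBIP no longer passed in KO2 when any 1 was left out of WT replicate 1 (adjusted p = 0.162), WT replicate 2 (0.0605), KO1 replicate 2 (0.0541) or KO2 replicates 1 (0.0503), 2 (0.135) and 3 (0.0881), and with no filter (0.0903). TRIAP1 no longer passed when WT replicate 2 (0.0965), WT replicate 3 (0.136), KO2 replicate 1 (0.0889) or KO2 replicate 3 (0.105) was left out, or after median centring (0.122) or quantile normalization (0.0542), with no filter (0.0558) or in a fit of WT and KO2 alone (0.0563).

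All 12 listed DNA repair and nucleotide supply targets were tested. In KO1, 6 fell and 3 rose (median log2 fold change -0.22), and in KO2, 5 fell and 2 rose (median -0.06), which is 75% and 58.3% called against 67.5% and 64.7% of all genes. RRM2B, the p53-inducible subunit of ribonucleotide reductase, fell from 13.7 ± 1.05 FPKM to 8.23 ± 0.827 and 9.05 ± 0.569 (SD, n = 3; limma adjusted p = 2.7e-05 and 0.000143). The excision repair nuclease gene ERCC5 fell from 34.8 ± 1.56 FPKM to 22.7 ± 1.72 and 21.7 ± 1.48 (adjusted p = 1.72e-05 and 1.02e-05 by limma). POLK, a translesion polymerase, fell from 24.4 ± 1.43 FPKM to 17.5 ± 0.805 and 19.1 ± 0.339 (adjusted p = 2.55e-05 and 0.000289 by limma). The helicase gene ASCC3 rose, from 15.1 ± 0.785 FPKM to 22.1 ± 1.39 and 21.8 ± 0.159 (adjusted p = 1.36e-05 and 2.08e-05 by limma).

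Together the 4 lists of other targets held 78 genes, of which 60 were tested and 18 were not. In KO1, 18 rose and 20 fell (63.3% of those tested, against 67.5% of all genes), and in KO2, 15 rose and 20 fell (58.3%, against 64.7%). Their median log2 fold change was -0.04 in KO1 and 0.01 in KO2. In both lines 12 of the 60 rose and 15 fell, or 45% in the same direction against 52.4% of all genes. BCL2L1 changed in opposite directions, as did 1.56% of all genes.

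**Figure D3:**
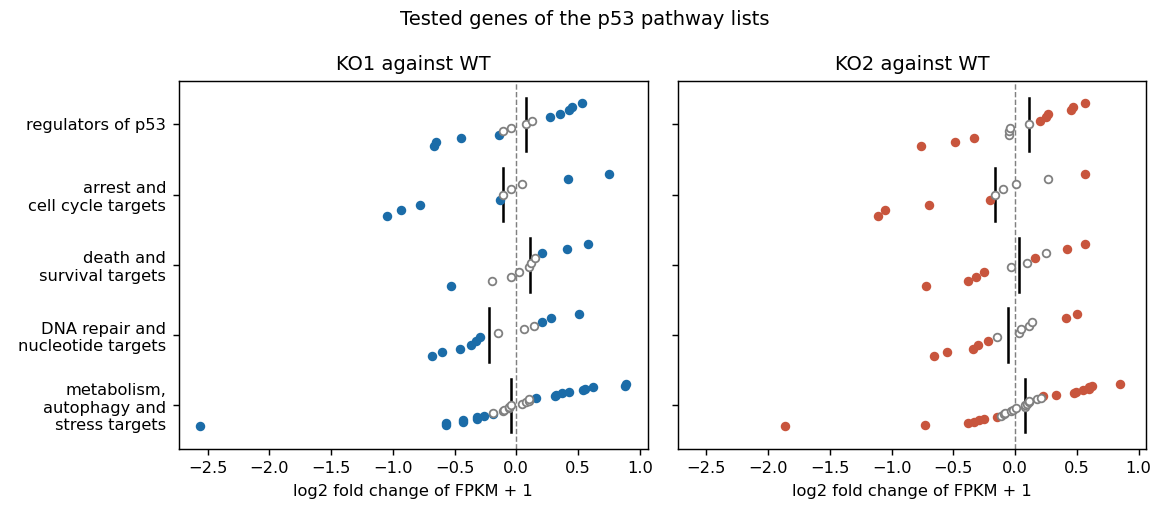
Log2 fold change of FPKM + 1 (horizontal axis) of every tested gene of the regulator list and the 4 lists of other p53 targets, in KO1 (blue) and KO2 (red) against WT; filled points passed at adjusted p under 0.05, open points did not, and black lines are list medians. Each list holds filled points on both sides of 0, and the leftmost point in both panels is DDIT4, at -2.56 in KO1 and -1.86 in KO2.

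In KO2 against KO1, 0 of the 8 tested genes passed by limma, and 30.6% of all genes tested passed. At an unadjusted p under 0.05, 1 of the 8 was found, against 42.2% of all genes. That gene was TNFRSF10B (log2 fold change 0.13, 95% confidence interval 0.01 to 0.24, adjusted p = 0.0819), which was also the only one of the 8 without overlap between these lines, against 47.4% of all genes. The 95% confidence intervals of single genes, not adjusted for the number tested, reflect only the spread of these libraries. They were -0.25 to 0.17 for TP53INP1, -0.20 to 0.24 for AEN, -0.13 to 0.25 for BTG2 and -0.25 to 0.00 for MDM2. After quantile normalization MDM2 passed as lower in KO2 (-0.16, adjusted p = 0.0495; 0.131 in the fit as reported). CDKN1A, which was not among the 8, had a mean of 0.602 ± 0.178 FPKM in KO1 and 0.928 ± 0.322 in KO2 (SD, n = 3), a ratio of 1.54 with overlapping ranges. Without the filter its log2 fold change between these lines was 0.26 (limma adjusted p = 0.255).

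**Figure D4:**
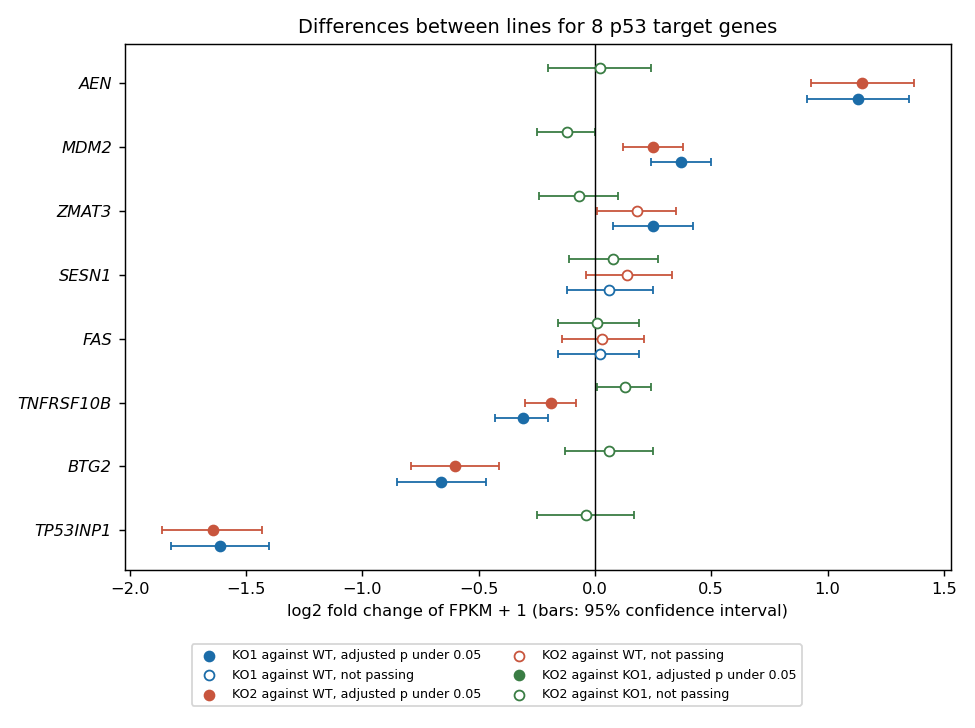
Log2 fold change of FPKM + 1 (horizontal axis) with its 95% confidence interval (bars) for the 8 tested p53 targets (vertical axis) in 3 comparisons; filled points passed at adjusted p under 0.05. The KO1 and KO2 points lie near each other, from TP53INP1 at -1.61 and -1.64 to AEN at 1.13 and 1.15, and no KO2 against KO1 point is filled.

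Of the 60 tested genes of the other target lists, 7 were higher and 4 lower in KO2 than in KO1 (18.3%, against 18.3% higher and 12.4% lower, 30.6% in all, among all genes), and after quantile normalization or median centring 6 were higher and 8 lower. In the death and survival list the 3 that passed were BAX, PMAIP1 and BCL2L1, which are named here after their values were seen. BAX, a pore-forming effector of apoptosis, had means of 24.1 ± 3.49, 23.3 ± 2.17 and 32.3 ± 1.23 FPKM in WT, KO1 and KO2 (SD, n = 3; KO2 against KO1 0.46 ± 0.10, limma adjusted p = 0.00518). The pro-apoptotic PMAIP1 (NOXA) stood at 24.4 ± 1.75, 26.7 ± 1.52 and 18.7 ± 2.36 FPKM (KO2 against KO1 -0.50 ± 0.08, limma adjusted p = 0.00147). BCL2L1, which encodes the survival protein BCL-XL, rose from 43.4 ± 0.402 FPKM to 50.2 ± 1.49 in KO1 and fell to 34.7 ± 1.25 in KO2 (limma adjusted p = 0.00114 and 6.31e-05 against WT).

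FPKM is scaled per transcript length, so levels can be ordered between genes. In WT the order by mean FPKM was MDM2 at 36.3, TNFRSF10B at 14.7, FAS at 10.1, AEN at 8.19, TP53INP1 at 7.89, SESN1 at 6.7, ZMAT3 at 6.65, BTG2 at 3.82 and CDKN1A at 0.786. The ranges of AEN and TP53INP1 overlapped, as did those of SESN1 and ZMAT3. In KO1 and KO2, AEN was second, at 19 and 19.2, and TP53INP1 was eighth, at 1.93 and 1.85. The ranges of ZMAT3 and SESN1 overlapped in both lines, and those of BTG2 and TP53INP1 overlapped in KO1 but not in KO2.

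The tested genes whose pattern over the 9 libraries was most like that of MDM2 were CPSF6, ANKRD50 and HS2ST1. Likeness was the root mean square difference of log2(FPKM + 1), each gene centred on its own mean, which was 0.0399, 0.041 and 0.0436. CPSF6, a pre-mRNA cleavage factor, had means of 35 ± 0.743, 45.1 ± 1.31 and 42.5 ± 1.33 FPKM in WT, KO1 and KO2 (SD, n = 3). For CDKN1A the nearest were DDIT3, ZNF554 and APOBEC3C, at 0.0931, 0.1 and 0.101. DDIT3, a transcription factor of the stress response, stood at 4.87 ± 0.555, 4.2 ± 0.0966 and 5.5 ± 0.735 FPKM. All points of these patterns share the same 9 libraries, and a weak gene with little variation resembles many others.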

How the data were processed

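Polyadenylated RNA from 500 ng of total RNA per library was sequenced for 9 Jurkat libraries, 3 per line, grouped by sample title. The authors deposited 1 table of FPKM values with a column per library. The submitters' processing notes name hg19, STAR 2.5.0b, Cufflinks 2.2.1 and bedtools 2.7.0, with no role. For the annotation, strandedness and scaling of libraries, the tool or setting is not given in the sources used here. Of 26228 rows, 38 hold text instead of numbers and were not used. Depth in reads is unknown, so no counting interval is given, and 0 pairs of libraries had identical columns.

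Genes with FPKM of at least 1 in at least 3 libraries were kept, and limma 3.58.1 (R 4.3.3) was run on log2(FPKM + 1) of all 9 libraries with a mean for each group, trended empirical Bayes moderation and no covariates. Tests were two-sided, and p-values were Benjamini-Hochberg adjusted over all genes tested, with a threshold of 0.05. The fit was tested on simulated data. All 131 listed symbols matched the table. The genes and lists were chosen with earlier results of these data known, and from general knowledge, so not every listed gene is an established direct target. Named were the 9 targets, MDM4, PPM1D, EZH2, from each list up to 4 genes, taken by the lowest p of the edited lines' mean against WT, and the 3 genes most like MDM2 and CDKN1A; others are said to be named after their values were seen. A further regulator is not reported here. Overlapping genes were taken from GENCODE 29 on GRCh38, without coordinates, and promoter windows from RefSeq. Alternatives were other filters, median centring, quantile normalization, pseudocounts of 0.1 and 0.5, robust moderation, fits of only the groups compared, a replicate block and leaving out each library.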

Additional observations from a re-analysis of the deposited data

Results flagged for a closer look

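Among the regulators and other targets named above, 7 differed between the edited lines by the limma contrast of KO2 against KO1, which is also the test of whether their differences from WT differ. The log2 fold change was 0.12 for USP7 (adjusted p = 0.0199), 0.18 for CYFIP2 (adjusted p = 0.00648) and 0.70 for DDIT4 (adjusted p = 0.000851). It was -0.29 for ACER2 (adjusted p = 0.022). These 4 genes passed in the same direction in both lines against WT. The log2 fold change was 0.46 for BAX (adjusted p = 0.00518), -0.50 for PMAIP1 (adjusted p = 0.00147) and -0.52 for BCL2L1 (adjusted p = 9.57e-06). The USP7 difference was lost after median centring (0.08, adjusted p = 0.102) and without KO1 replicate 2 (adjusted p = 0.0738) or 3 (0.0537) or without KO2 replicate 1 (0.052), 2 (0.0684) or 3 (0.0592). The ACER2 difference was lost without KO1 replicate 1 (adjusted p = 0.0705) or 2 (0.0546) or KO2 replicate 1 (0.0865). Other named genes missed the threshold as reported and passed under alternatives. PTP4A1 (-0.18, adjusted p = 0.0507) passed under 7, with adjusted p from 0.0194 without KO1 replicate 1 and 0.0266 without WT replicate 1 to 0.0489 among genes at 5 FPKM or more in 3 libraries. ATM (0.16, adjusted p = 0.0569) passed without WT replicate 3 (0.0465), and APAF1 (-0.18, adjusted p = 0.0924) after quantile normalization (0.046).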

How the results depend on the processing

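Each comparison was recomputed under 18 alternatives. The counts of the 9 targets that rose and fell against WT stayed within 1.5 times of those reported, and from 2 to 3 rose and 3 fell in either edited line when 1 library was left out. Between the edited lines, 1 target (MDM2) was lower after quantile normalization, and without any 1 library 0 passed in either direction. For the other targets, 8 were lower in KO2 than in KO1 after quantile normalization and 8 after median centring, against 4 as reported; the cause was not tested. No paired sample origin is given by the replicate numbers: correlations of deviations from group means ran from -0.287 to 0.318 for same-numbered pairs and from -0.266 to 0.343 for others. With the replicate block, 3 targets rose and 3 fell in KO1, 2 and 3 in KO2, and 0 between the edited lines; of the other targets, 17 rose and 20 fell in KO1, 15 and 18 in KO2, and 7 and 4 between the edited lines. The IKBIP call in KO2 was lost with the block (adjusted p = 0.0721).

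Signs changed only for values that passed neither as reported nor under the alternative. The log2 fold change of FAS in KO2 was -0.029 after quantile normalization and -0.014 after median centring; between the edited lines it was -0.03 and -0.021, and that of AEN was -0.02 and -0.017. Leaving out 1 library gave -0.038 to 0.096 for FAS in KO1, -0.003 to 0.085 for FAS in KO2 and -0.16 to 0.034 for BAX in KO1. Between the edited lines it gave -0.11 to 0.057 for TP53INP1, -0.017 to 0.045 for AEN, -0.065 to 0.069 for FAS, -0.018 to 0.14 for SESN1, -0.064 to 0.0083 for PPM1D, -0.013 to 0.088 for TP53RK, -0.13 to 0.046 for BTG1, -0.0036 to 0.16 for CDKN1B, -0.029 to 0.0082 for BID, -0.061 to 0.026 for ASCC3 and -0.068 to 0.021 for GPX1. BTG2 and ACER2 were not tested among genes at 5 FPKM or more in 3 libraries, and CDKN1A was tested only with no filter.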

Other observations

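Other p53 targets that differed between the edited lines are named here after their values were seen. Whether each of these differences holds under the alternatives was not tested gene by gene. PHPT1, a histidine phosphatase, had means of 13.9 ± 1.2, 10 ± 0.311 and 15.8 ± 1.38 FPKM in WT, KO1 and KO2 (SD, n = 3; KO2 against KO1 0.61 ± 0.07, limma adjusted p = 0.000188). The tetraspanin CD82 stood at 26 ± 3.18, 20.7 ± 2.72 and 28.1 ± 0.402 FPKM (limma adjusted p = 0.00786). SUSD6 stood at 8.25 ± 0.214, 6.73 ± 0.0468 and 8.13 ± 0.46 FPKM (limma adjusted p = 0.0101), and the cytidine deaminase gene APOBEC3C at 17.6 ± 1.91, 14.2 ± 2.21 and 18.2 ± 1.37 (limma adjusted p = 0.0354). FBXW7, a ubiquitin ligase subunit that targets MYC and NOTCH1, was lower in KO2, at 26.1 ± 4.35, 27.9 ± 1.1 and 20.9 ± 0.64 FPKM (limma adjusted p = 0.00844). Of the 94 listed regulators and other targets, 5 were listed at 0 in all 9 libraries, namely CDKN2A, CMBL, EDA2R, GLS2 and SPATA18.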
